A study of Mus musculus with 9 samples.

Results

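The genes described here are 10 genes of bicarbonate and anion handling in the mouse submandibular salivary gland: the carbonic anhydrases Car2, Car6, Car12, Car13 and Car14, the Slc4 transporters Slc4a2, Slc4a4 and Slc4a7, and the Slc26 exchangers Slc26a4 and Slc26a6. They were chosen by name, with earlier results of these data known. Their rows were found for 10 of 10 among the 54532 gene identifiers of the count table. RNA sequencing read counts were available for 9 submandibular glands of WT mice, all of which had received 10 Gy of radiation, with 3 glands each at 30, 60 and 90 days afterwards. Non-irradiated glands were not analysed here, so each comparison is between irradiated glands, and time since irradiation cannot be told apart from ageing. Age, sex and strain beyond WT are not in the labels. RNA came from 4 sections of a gland, each 50 µm thick, so the mixture of cells in those sections is part of every value. The labels do not say whether the glands of a group came from separate mice, and p-values measure the spread between these samples.

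Carbonic anhydrases are zinc enzymes that interconvert carbon dioxide and bicarbonate, the main buffer of saliva. Cytosolic forms supply bicarbonate and protons to membrane transporters, membrane-bound forms act on the outer face of the cell, and a secreted form leaves the gland in saliva. Slc4 proteins exchange chloride for bicarbonate or carry bicarbonate together with sodium, mostly at the basolateral membrane of epithelia, while Slc26 proteins exchange chloride, bicarbonate and other anions, often at the apical membrane.

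The libraries held 16541396 to 26065856 counts, fewest at 30 days. The most abundant gene, the secreted product Mucl2, took 31.4% to 42.8% of the counts of a library, so values were scaled between libraries with TMM (trimmed mean of M-values) and are given as CPM (counts scaled to a common library size of 1e+06). Without TMM the median log2 fold change of all tested genes moved from 0.01 to 0.24 for 90 against 30 days and from 0.00 to 0.17 for 90 against 60 days. Summed markers of serous acini, granular ducts and striated ducts were high in all 9 libraries, although 1 of the 9 serous acinar markers, Pnliprp1, had 2 counts in all. The striated and excretory duct sum, 17461 to 24162 CPM, was mostly a single gene, Klk1, at 16855 to 23544 CPM. The summed skeletal muscle markers stayed between 1.55 and 2.94 CPM. Those of sublingual mucous cells ran from 152 to 1142 CPM and those of immune cells from 281 to 764 CPM.

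The 10 genes ran from one of the most abundant transcripts of the gland to a few counts in all. Levels of different genes were compared as CPM per kb of exon. Car6, which encodes the carbonic anhydrase secreted into saliva, stood at 17743 ± 3272 CPM per kb in the 30-day glands, 18599 ± 4646 in the 60-day glands and 12116 ± 2254 in the 90-day glands (SD, n = 3 per time). The next gene in this order was Car12, for a membrane-bound enzyme with its active site outside the cell, at 30.4 ± 1.66, 32.2 ± 3.09 and 29.96 ± 2.17 CPM per kb at the successive time points. Over the 9 libraries Car2 ran from 13.4 to 18.0 CPM per kb and Car13 from 8.01 to 16.3. Both encode cytosolic carbonic anhydrases, and their ranges overlapped. Slc4a2, the chloride and bicarbonate exchanger of basolateral membranes, was the highest of the transporters at 2.44 to 3.28 CPM per kb. Slc26a6, an apical anion exchanger, at 1.54 to 2.07, and Slc4a7, an electroneutral sodium bicarbonate cotransporter, at 1.05 to 2.07, overlapped in CPM per kb. This order depends on exon length, taken as the union over all transcripts: 8322 bp for Slc4a2, 5411 bp for Slc26a6 and 15205 bp for Slc4a7. Without division by length their mean levels were 23.9, 9.76 and 21.7 CPM. Slc4a4, the electrogenic sodium bicarbonate cotransporter, was the lowest of the 8 genes with enough counts to test, at 0.196 to 0.654 CPM per kb.

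**Figure D1:**
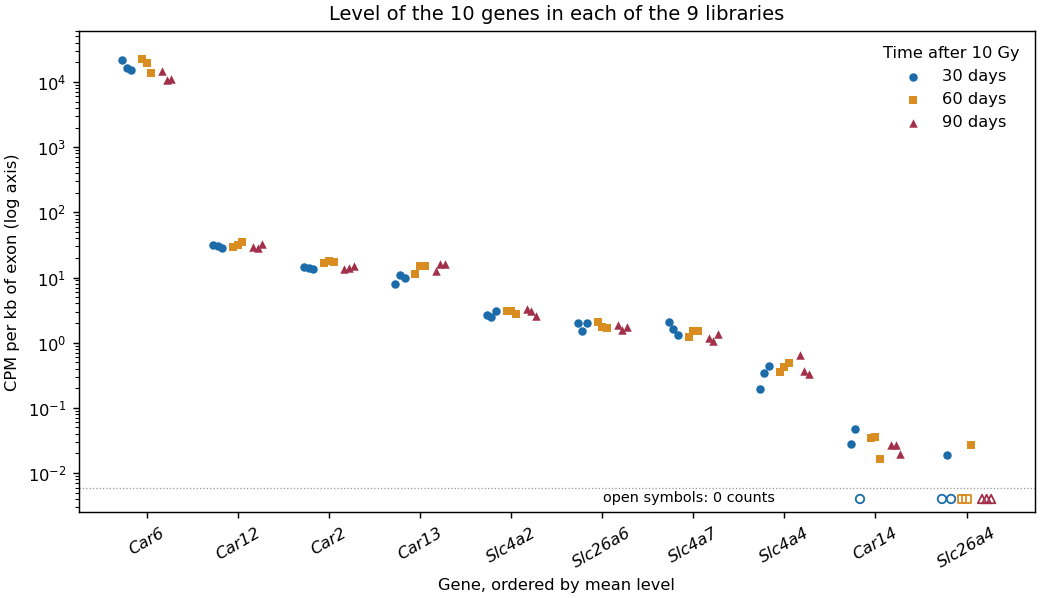
Level of each of the 10 genes in each of the 9 libraries, as CPM per kb of exon on a log axis, with genes ordered by their mean. Points are libraries, coloured by time after irradiation, and open symbols mark 0 counts; Car6 lies at 10554 or more in every library, and Car14 and Slc26a4 lie under 0.05.

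Car14 and Slc26a4 were at the floor of the assay. Car14 (ENSMUSG00000038526, chromosome 3, 95897768 to 95904691, minus strand in GRCm38), another membrane-bound carbonic anhydrase, had 13 counts in the 9 libraries together (exact 95% Poisson interval 6.92 to 22.2, counting error only). Slc26a4 (ENSMUSG00000020651, chromosome 12, 31519827 to 31559969, minus strand), the anion exchanger pendrin, had 3 counts (interval 0.619 to 8.77), 1 in a 30-day library and 2 in a 60-day library, and 0 in the other 7. A limit of 3 counts corresponds to 0.101 to 0.212 CPM in these libraries, so a higher level of either gene would have been detectable, and neither was tested for a change. Car14 also overlaps an exon of Aph1a on the opposite strand, a gene with 8990 counts, and whether strand was used in counting is not given in the sources used here.

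Of the 8 tested genes, 0 differed between 60 and 30 days, where 1.56% of all 15224 tested genes were called at an adjusted p under 0.05 (edgeR's quasi-likelihood test, Benjamini-Hochberg adjustment over all tested genes, which gave every adjusted p below). DESeq2 also gave 0. Between 90 and 60 days the count was 0 of 8, beside 0.256% of all genes, and 1 with DESeq2. Between 90 and 30 days 1 of 8, Car13, was higher and 0 were lower, beside 3.57% of all genes in either direction. In the test of any difference among the time points Car13 was again the 1 gene called of 8, beside 3.29% of all genes. At an unadjusted p under 0.05 the counts were 2, 2 and 3 of 8 for 60 against 30, 90 against 60 and 90 against 30 days, beside 12.4%, 10.8% and 16.8% of all genes. With so few genes these counts cannot be set apart from the background. The median log2 fold change of the 8 genes was 0.10, -0.10 and 0.00 for the same contrasts, beside 0.00, 0.00 and 0.01 for all tested genes.

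**Figure D2:**
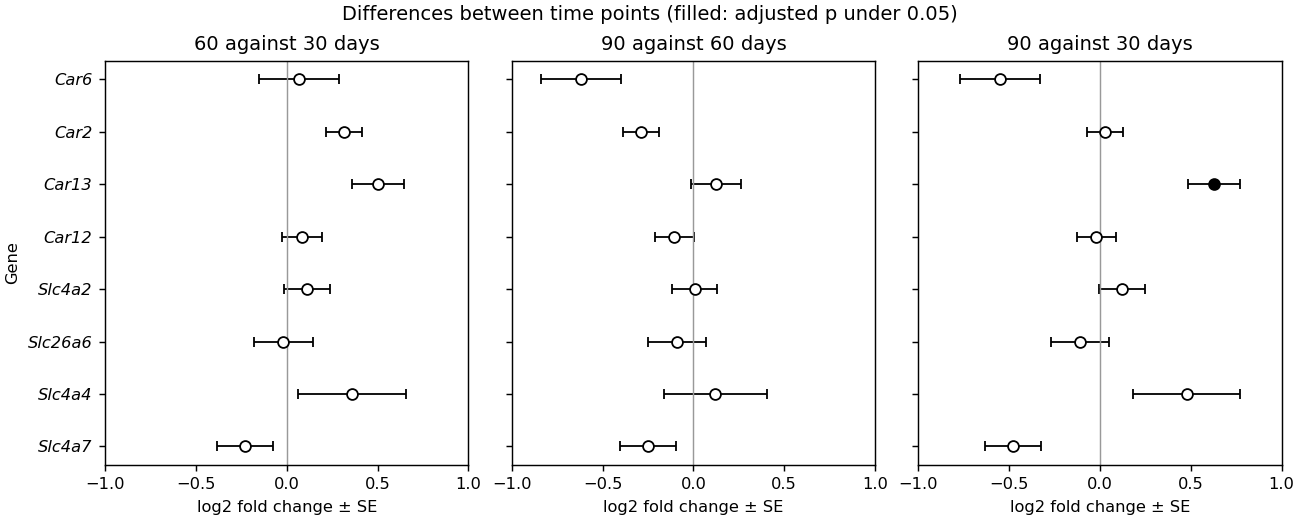
Log2 fold change with its standard error for the 8 tested genes in the 3 pairwise contrasts; values right of 0 are higher at the later time. The filled point marks Car13 at 90 against 30 days (0.63 ± 0.14), the single value with an adjusted p under 0.05; open points did not pass.

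Car13 (ENSMUSG00000027555, chromosome 3, 14641727 to 14663002, plus strand in GRCm38) rose over the interval. It measured 18.4, 25.5 and 22.9 CPM in the 30-day libraries, 25.9, 34.8 and 34.1 CPM in the 60-day libraries and 29.3, 37.5 and 36.6 CPM in the 90-day libraries. All 60-day and all 90-day values lay above all 30-day values, while the 60-day and 90-day values overlapped. Such a separation held in 8.65% of all tested genes for higher values at 60 than at 30 days, and in 11.4% for higher values at 90 than at 30 days. From 30 to 90 days the log2 fold change reached 0.63 ± 0.14 (SE; adjusted p = 0.0192; 95% interval 0.32 to 0.93), a 1.54-fold rise, higher in 3 of 3 libraries. For 30 to 60 days it was 0.50 ± 0.14 (adjusted p = 0.106) and from 60 to 90 days 0.12 ± 0.14 (adjusted p = 0.814), and neither step passed. The step from 30 to 60 days did pass with no filter on low counts (adjusted p = 0.00408) and without 60-day sample 1 (0.0290), and its adjusted p ran up to 0.438 over all alternatives. The call from 30 to 90 days was lost without 30-day sample 1 (adjusted p = 0.124), without 90-day sample 2 (0.105) and without 90-day sample 3 (0.0907). Over all alternatives its adjusted p ran from 4.89e-05 to 0.124, and it was 0.0125 without TMM, where the log2 fold change was 0.84.

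Granular duct markers rose over the same interval as Car13, and their part in its rise was not tested. All marker lists were chosen with earlier results of these data known, so counts within them are a description. All 10 listed granular duct markers were higher at 90 than at 30 days with an adjusted p under 0.05, beside 1.81% of all genes. Their summed level was 6742 to 12766 CPM at 30 days, 32135 to 41216 at 60 days and 27545 to 47161 at 90 days. Among 10 striated and excretory duct markers, 7 had positive and 3 negative log2 fold changes (median 0.05), and 2 rose from 30 to 90 days, beside 1.81% of all genes. These were Scnn1b and Scnn1g, subunits of the epithelial sodium channel, by 0.54 ± 0.12 (adjusted p = 0.0123) and 0.47 ± 0.12 (adjusted p = 0.0383) on the log2 scale. Of 5 tested myoepithelial markers, 5 had positive log2 fold changes (median 0.47) and an unadjusted p under 0.05, beside 16.8% of all genes. Called higher was 1, the smooth muscle actin gene Actg2 (1.14 ± 0.22, SE, adjusted p = 0.00713), beside 1.81% of all genes. The rise was not particular to these lists. Positive from 30 to 90 days were 7 of 9 intercalated duct and basal markers (median 0.34) and 7 of 9 ionocyte markers (median 0.19). So were 5 of 6 tested immune markers (median 0.42) and 6 of 6 tested erythroid markers (median 1.09). Of 8 tested serous acinar markers 7 were negative (median -0.50), and the remaining lists were mixed. In whole sections, more cells of a type and more RNA per cell cannot be told apart. The 3 genes whose levels followed Car13 most closely were Frmd3, Tes and Crem, with Pearson's r of 0.98, 0.97 and 0.97 on log2 CPM over the 9 libraries, among 13017 genes with a mean of at least 1 CPM. These coefficients are a description, and the genes share libraries, depth and time points with Car13. Of these genes Tes, which encodes a focal adhesion protein, was also called from 30 to 90 days (log2 fold change 0.67 ± 0.14, SE; adjusted p = 0.0110), whereas Frmd3 (adjusted p = 0.281) and Crem, a transcription factor of cAMP signalling (adjusted p = 0.173), were not.

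**Figure D3:**
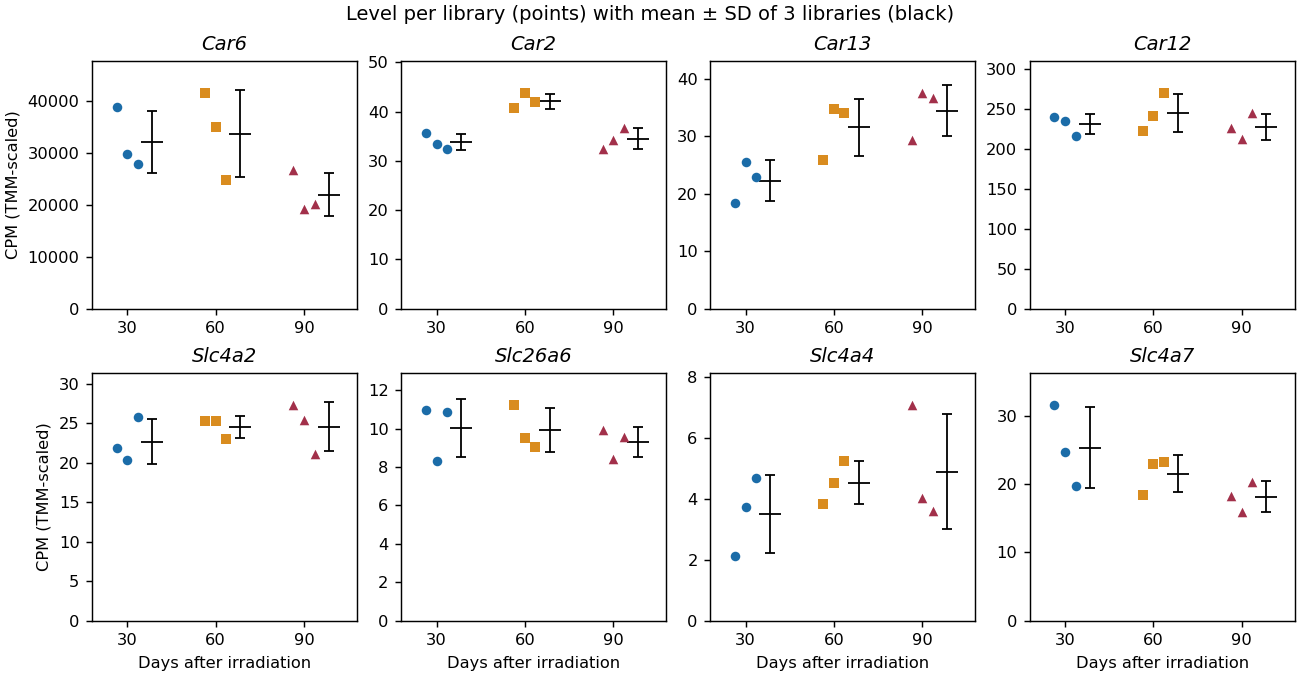
CPM of the 8 tested genes against days after irradiation, with a point for each library and the mean ± SD of 3 libraries in black; axes start at 0 and differ between panels. Car13 climbs from 18.4 to 25.5 CPM at 30 days to 29.3 to 37.5 CPM at 90 days, and Car2 is highest in the 3 libraries of 60 days.

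Car2 (ENSMUSG00000027562, chromosome 3, 14886273 to 14900770, plus strand), the neighbouring and most widely expressed cytosolic carbonic anhydrase, showed a different course. It measured 35.6, 33.4 and 32.5 CPM at 30 days, 40.7, 43.7 and 41.9 CPM at 60 days, and 32.5, 34.3 and 36.7 CPM at 90 days. The 60-day libraries lay above every library of the other time points. The separation of the 60-day group was shared by 8.65% of all genes against 30 days, and 7.64% of all genes were lower at 90 than at 60 days in this way. The log2 fold changes were 0.31 ± 0.10 from 30 to 60 days (SE; adjusted p = 0.158) and -0.29 ± 0.10 from 60 to 90 days (adjusted p = 0.288), and neither passed the threshold. The contrast of 60 days with the mean of 30 and 90 days was 0.30 ± 0.08 (SE; adjusted p = 0.182), where 0.256% of all genes were called and 0 of the 8, also with DESeq2; at an unadjusted p under 0.05 it was 1 of 8, Car2, beside 9.45% of all genes.

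The 2 cytosolic enzymes could be compared inside each library, where scaling between libraries plays no part. Per count of Car2 there were 0.517, 0.762 and 0.705 counts of Car13 at 30 days. The values were 0.636, 0.797 and 0.815 at 60 days and 0.904, 1.09 and 0.997 at 90 days. All 90-day ratios were above all ratios of the earlier time points, and the 30-day and 60-day ratios overlapped. Against Car12, Car13 gave 0.0969 ± 0.0176 counts per count of Car12 in 30-day glands, 0.129 ± 0.0141 in 60-day glands and 0.152 ± 0.0235 in 90-day glands (SD, n = 3 per time), with no overlap between 30 days and the later times. These ratios use the same counts as the courses of the single genes, so they are not separate support for the rise of Car13. How often other pairs of genes separate in this way was not computed, and no test was made of the ratios.

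Shares within the family gave the same picture of Car6 standing above the rest. Of the counts per kb of all 16 listed carbonic anhydrase genes, Car6 held 99.6% ± 0.0616, 99.6% ± 0.138 and 99.4% ± 0.113 at the successive times (SD, n = 3). Among the other 15 genes Car12 was first, with 48.3% ± 2.14 of the counts per kb at 30 days and 44.1% ± 1.99 at 90 days. The share of Car13 among these genes was 15.4% ± 2.22 at 30 days, 19.0% ± 1.71 at 60 days and 22.1% ± 2.43 at 90 days. That of Car2 was 22.2% ± 1.43, 24.2% ± 1.56 and 20.96% ± 0.336 at the same times. Car8, a relative that lacks the catalytic activity of the family, followed with 5.74% ± 0.738 at 30 days and 7.30% ± 0.705 at 90 days.

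**Figure D4:**
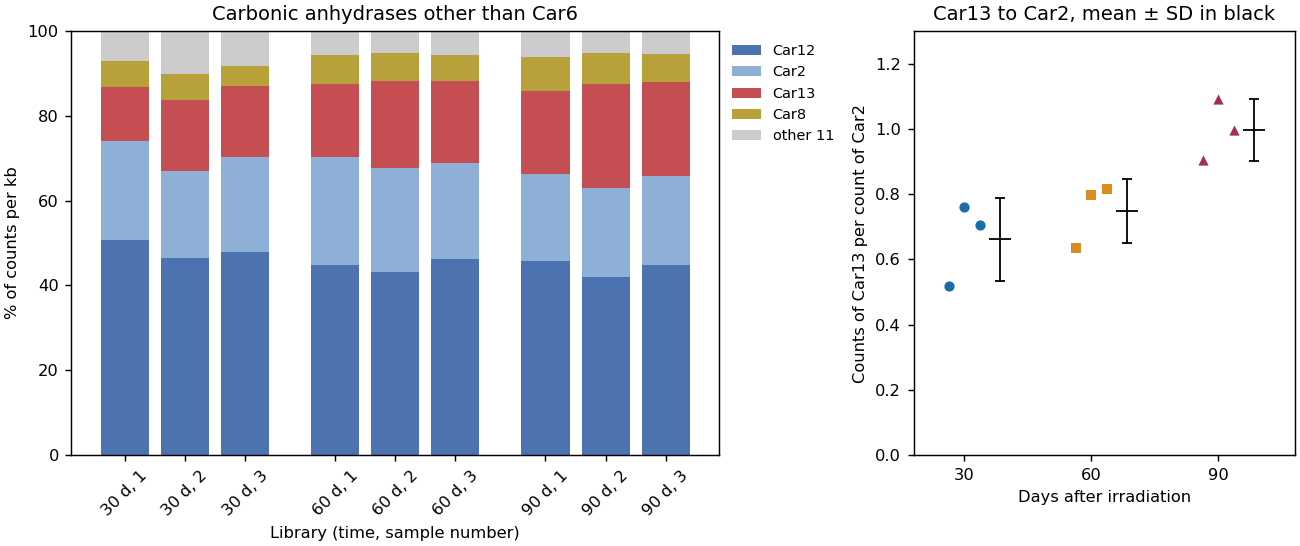
Left, share of counts per kb of the 15 carbonic anhydrase genes other than Car6, one bar for each library, in percent. Right, counts of Car13 per count of Car2 in each library with mean ± SD in black; the 90-day libraries lie at 0.904 to 1.09 and the 30-day libraries at 0.517 to 0.762.

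Car6 (ENSMUSG00000028972, chromosome 4, 150187015 to 150201332, minus strand) was among the most abundant transcripts of the gland, between the third and the sixth in each library. It took 2.99% ± 0.194, 3.24% ± 0.576 and 2.43% ± 0.553 of all counts at the successive times (SD, n = 3; Wilson 95% intervals of single libraries were at most 0.0167 percentage points wide and cover counting error only). After TMM scaling it measured 38995, 29784 and 27883 CPM at 30 days, 41541, 34988 and 24797 CPM at 60 days and 26696, 19166 and 20147 CPM at 90 days. The 90-day libraries were all below the 30-day libraries, which held in 11.8% of all genes, and overlapped with the 60-day libraries. The 60-day libraries alone spread over most of the range. For 90 against 30 days the log2 fold change came to -0.55 ± 0.22 (SE; adjusted p = 0.203; 95% interval -1.01 to -0.09), and for 90 against 60 days to -0.62 ± 0.22 (adjusted p = 0.305). Neither passed the threshold. With DESeq2 both were called (adjusted p = 0.0339 and 0.0416), as they were with no filter on low counts (adjusted p = 0.00194 and 0.000462). Without TMM the change from 30 to 90 days was -0.30, and over all alternatives its adjusted p ran from 0.00194 to 0.570.

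Car6 is a product of serous acinar cells. Of 8 tested serous acinar markers, 7 had negative and 1 positive log2 fold changes from 30 to 90 days (median -0.50). An unadjusted p under 0.05 was reached by 6, beside 16.8% of all genes. From 60 to 90 days 8 were negative (median -0.33), and from 30 to 60 days 5 were positive and 3 negative. At an adjusted p under 0.05, 2 fell from 30 to 90 days, the water channel gene Aqp5 and the lactoperoxidase gene Lpo, beside 1.77% of all genes. Amy1, which has near-identical relatives, rose, beside 1.81% of all genes, and the other 5 did not pass. From 60 to 90 days 1 of the 8 was called, beside 0.256% of all genes: Bhlha15, a transcription factor of secretory cells, had a log2 fold change of -0.78 ± 0.12 (adjusted p = 0.00581). The summed level of the 9 listed markers, most of it Mucl2, was 456526 to 646439 CPM at 30 days and 310189 to 457300 CPM at 90 days. Within libraries Car6 held 32.2 ± 1.05, 32.4 ± 4.98 and 32.9 ± 1.49 counts per count of Lpo at the successive times (SD, n = 3). Relative to Mucl2 the ratio was 0.0754 ± 0.00309, 0.0895 ± 0.0146 and 0.0712 ± 0.0196 counts per count, and relative to Pip, another secreted product, it was 2.77 ± 0.290, 2.38 ± 0.327 and 2.99 ± 0.838. Relative to Car12 it was 139 ± 19.9, 141 ± 47.3 and 96.9 ± 18.8, with all 90-day ratios below all 30-day ratios. These ratios were chosen after the values had been seen and were not tested, nor was the part of the acinar cells in the level of Car6.

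Car12 (ENSMUSG00000032373, chromosome 9, 66713686 to 66766845, plus strand) kept to a narrow range. It measured 241, 235 and 217 CPM at 30 days, 223, 242 and 269.5 CPM at 60 days and 226, 212 and 245 CPM at 90 days, and all groups overlapped. Its log2 fold change for 90 against 30 days stood at -0.02 ± 0.11 (SE; adjusted p = 0.955), with a 95% interval of -0.25 to 0.21.

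Among the transporters 0 of 4 tested genes passed in any contrast, where 0.256% to 3.57% of all genes were called. With 4 genes this cannot be set apart from the background. Slc4a2 (ENSMUSG00000028962, chromosome 5, 24423837 to 24440950, plus strand) measured 21.9, 20.3 and 25.8 CPM at 30 days, 25.3, 25.3 and 23.0 CPM at 60 days and 27.3, 25.4 and 21.1 CPM at 90 days. The fitted change to 90 days was 0.12 ± 0.13 on the log2 scale (SE; adjusted p = 0.712; 95% interval -0.15 to 0.38). Reads of Slc4a2 are uncertain in part, since an exon overlaps Fastk on the opposite strand, a gene with 11180 counts beside 4757 for Slc4a2. Slc26a6 (ENSMUSG00000023259, chromosome 9, 108853283 to 108913049, plus strand) had 10.98, 8.31 and 10.9 CPM at 30 days, 11.2, 9.49 and 9.05 CPM at 60 days and 9.94, 8.41 and 9.58 CPM at 90 days. Its log2 fold change for 90 against 30 days came to -0.11 ± 0.16 (SE; adjusted p = 0.805; 95% interval -0.45 to 0.23). The groups of both exchangers overlapped at all times.

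The sodium bicarbonate cotransporters differed from each other in the sign of their fitted change. Slc4a7 (ENSMUSG00000021733, chromosome 14, 14702279 to 14799940, plus strand) measured 31.5, 24.7 and 19.7 CPM at 30 days, 18.5, 23.0 and 23.2 CPM at 60 days and 18.2, 15.9 and 20.4 CPM at 90 days. The 30-day libraries were the most spread, and the lowest of them lay within the range of the 90-day libraries. Its log2 fold change for 90 against 30 days came to -0.48 ± 0.16 (SE; adjusted p = 0.104), negative under all 18 alternatives, with an adjusted p of 0.0301 without 30-day sample 3, 0.0156 with no filter, and 0.0156 to 0.509 over all of them. Slc4a4 (ENSMUSG00000060961, chromosome 5, 88886818 to 89239653, plus strand) rested on 30 to 210 counts in a library. It measured 2.12, 3.74 and 4.67 CPM at 30 days, 3.84, 4.52 and 5.25 CPM at 60 days and 7.07, 4.02 and 3.61 CPM at 90 days. For 90 against 30 days the log2 fold change came to 0.48 ± 0.30 (SE; adjusted p = 0.450), and its 95% interval of -0.14 to 1.10 is wide. The difference between these cotransporters was not tested.

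Other genes of the same families and their partners were taken from lists that were chosen by name, with earlier results of these data known. Of 11 further carbonic anhydrase genes 8 could be tested. For 60 against 30, 90 against 60 and 90 against 30 days 0 were called, beside 1.56%, 0.256% and 3.57% of all genes. At an unadjusted p under 0.05 there were 2, 0 and 3 in the same order, beside 12.4%, 10.8% and 16.8% of all genes. Of 7 further Slc4 genes 3 could be tested, and 1 was called at 90 against 30 days, beside 3.57% of all genes. This was Slc4a11, a transporter of the family that conducts protons rather than bicarbonate. It measured 23.3, 28.5 and 26.9 CPM at 30 days, 23.8, 27.7 and 29.0 CPM at 60 days and 36.7, 35.9 and 36.0 CPM at 90 days. The 90-day libraries were above all others, and 11.4% of all genes were likewise separated from the 30-day libraries. For 90 against 30 days the log2 fold change of Slc4a11 came to 0.46 ± 0.11 (SE, adjusted p = 0.0261). Of 9 further Slc26 genes 5 could be tested, and 1 was called in the same contrast, beside the same 3.57%. This was Slc26a2, a sulfate transporter needed for the sulfation of proteoglycans. It measured 138, 141 and 116 CPM at 30 days, 122, 127 and 137 CPM at 60 days and 98.4, 83.8 and 103 CPM at 90 days. The 90-day libraries were below all others. Of all genes, 11.8% were lower in this way at 90 than at 30 days, and 7.64% at 90 than at 60 days. Slc26a2 fell by 0.47 on the log2 scale from 30 to 90 days (SE 0.11, adjusted p = 0.0221), and without TMM by 0.25 (adjusted p = 0.370).

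Of 20 partners in proton, chloride and bicarbonate handling, 19 could be tested, and 2 were lower at 90 than at 30 days while 0 were higher, beside 1.77% and 1.81% of all genes. The first was Stk39, a kinase that phosphorylates the chloride uptake transporter Slc12a2. It measured 252, 216 and 187 CPM at 30 days, 185, 186 and 189 CPM at 60 days and 150, 136 and 157 CPM at 90 days, and it fell by 0.56 on the log2 scale from 30 to 90 days (SE 0.11; adjusted p = 0.00884). The other was Ano1, the calcium-activated chloride channel of acinar cells, which fell by 0.47 (SE 0.11; adjusted p = 0.0245). Without TMM the falls were 0.33 (adjusted p = 0.215) and 0.25 (adjusted p = 0.368). Of the 19 partners, 7 had positive and 12 negative log2 fold changes from 30 to 90 days with TMM (median -0.02). Among those that did not pass, the bicarbonate-permeable channel gene Cftr stood at 0.48 ± 0.15 (adjusted p = 0.0842). The calls of Slc4a11, Slc26a2, Stk39 and Ano1 were lost in 5, 3, 2 and 4 of the 9 cases in which a single library was left out, with adjusted p-values of up to 0.165, 0.151, 0.0627 and 0.159 in those cases. For all 4 they were lost without 30-day sample 1 and without 90-day sample 2.

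**Figure D5:**
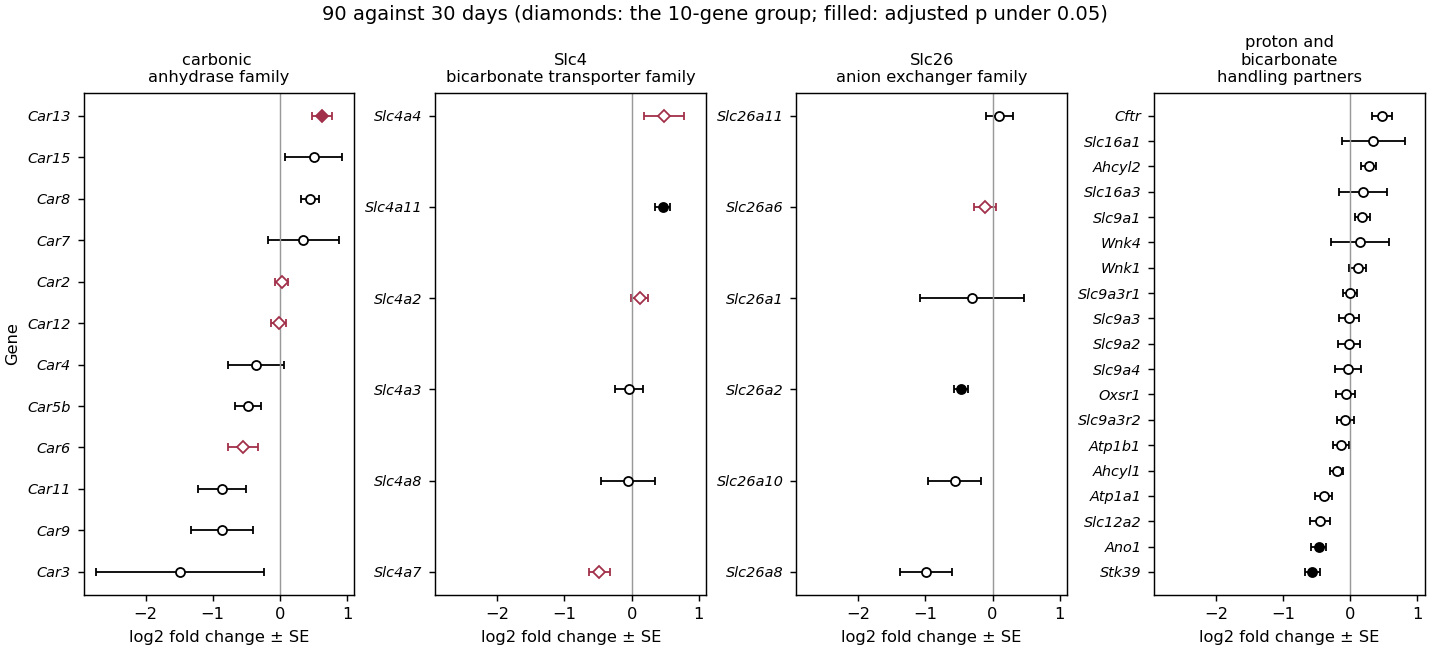
Log2 fold change with its standard error from 30 to 90 days for all tested genes of the carbonic anhydrase, Slc4 and Slc26 families and of 20 partners. Diamonds are the 10-gene group and circles other genes; filled symbols (Car13, Slc4a11, Slc26a2, Ano1 and Stk39) have an adjusted p under 0.05.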

How the data were processed

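Per the labels, total RNA of each gland was treated with DNase I and made into a SMARTER mRNA-seq library. The authors deposited raw counts, whole numbers for 54532 Ensembl genes. Per the submitters' processing notes the tools included fastp, STAR and featureCounts, and the build was mm10; versions, annotation and use of strand are not given in the sources used here. Columns were matched to samples by day and number, and 3 columns that match no listed sample were not used. Symbols came from a table of gene identifiers (54409 matched), and positions and exon lengths from GENCODE mouse release 21 (GRCm38; 54495 matched).

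Low-count genes were dropped by filterByExpr (minimum count 10) in edgeR 4.0.16, leaving 15224 of 27001 genes with a count. Libraries were scaled with TMM. All 9 libraries were fitted together by time point with edgeR's robust quasi-likelihood test, threshold 0.05 after Benjamini-Hochberg adjustment; the script was tested on simulated data. Contrasts were the 3 pairs of times, 60 days against the mean of the others, and any difference. Log2 CPM used a prior count of 2. Alternatives, given in the closing section, included DESeq2 1.42.0 and limma 3.58.1 in R 4.3.3; figures used matplotlib 3.10.9.

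The genes and lists were chosen with earlier results of these data known. The text names the 10 genes, up to 5 further genes in each pathway list with an adjusted p under 0.05 in a pair of times, the 3 genes most correlated with a called gene, and markers where their list is given. Further genes, among them Car3, Car8, Cftr, Slc4a1 and Slc4a9, were named outside this rule. A planned comparison of protein sequences was not run.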

Additional observations from a re-analysis of the deposited data

How the results depend on the processing

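Depth limits Car14 and Slc26a4, which lie at the floor, and Slc4a4. Over the 10 genes, 32 pairs of a tested gene and a contrast were recomputed under up to 18 alternatives. In 27 pairs no call changed, and no called value turned its direction; of 568 recomputed values 3 lost and 9 gained a call. For the genes of the group, the number called was 0 for 60 against 30 days, 1 with no filter on low counts, and 1 with the sample number as a replicate block (Car13, adjusted p = 0.0189, as against 0.106). Leaving out single libraries gave 0 to 1. For 90 against 60 days it was 0, and 1 with DESeq2 or no filter (Car6). For 90 against 30 days it was 1, with 2 under DESeq2, 3 with no filter and 0 to 2 leaving out single libraries. For any difference it was 1, with 2 under DESeq2, 3 with no filter, 0 with limma-voom and 0 to 1 leaving out single libraries. The cause of these shifts was not tested.

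Over all genes, 238 were called for 60 against 30 days, 39 for 90 against 60, 544 for 90 against 30, 39 for 60 days against the mean of the others and 501 for any difference. DESeq2 gave 376, 150, 867, 148 and 847, and no filter gave 459, 354, 1045, 230 and 1194 in the same order. Without TMM the counts were 90 for 60 against 30 days (79 higher, 11 lower, as against 173 and 65), 20 for 60 days against the mean of the others (12 higher, 8 lower, as against 31 and 8) and 277 for any difference. The splits without TMM were 19 higher and 9 lower for 90 against 60 days (14 and 25 with it) and 406 higher and 34 lower for 90 against 30 days (275 and 269 with it). Leaving out single libraries gave 73 to 244, 16 to 103, 184 to 703, 13 to 81 and 220 to 683. With the replicate block the counts for 90 against 60 days and for 60 days against the mean of the others were 92 and 73. Equal sample numbers are not described as matched animals: deviations of same-numbered libraries correlated at -0.06 to 0.191, with 1 of 9 pairs over 0.1, and 8 of 18 best matches shared the number.

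By raw counts without division by length, Car6 held 99.0%, 98.9% and 98.5% of carbonic anhydrase counts at 30, 60 and 90 days, and Car13 7.001%, 8.99% and 10.5% of the rest. Thinning all libraries to the smallest total was added after seeing the data and changed no call of the 10 genes.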

Other observations

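Ionocytes are rare epithelial cells rich in proton pumps, and in the inner ear and kidney their transcription factor Foxi1 is required for Slc26a4. In these glands Foxi1 was present at 28.3 to 40.4 CPM at 30 days, 23.5 to 26.9 CPM at 60 days and 30.5 to 40.6 CPM at 90 days. Ascl3, a transcription factor of ionocytes and of duct cells, was at 31.3 to 54.0 CPM over the 9 libraries, and the proton pump subunit genes Atp6v1b1 and Atp6v0d2 were at 13.9 to 19.0 and 46.3 to 65.7 CPM. The summed level of the 9 listed ionocyte markers was 190 to 224 CPM at 30 days, 203 to 219 CPM at 60 days and 224 to 255 CPM at 90 days. Slc26a4 nevertheless had 3 counts in all, and Slc4a9, another gene of the Slc4 bicarbonate transporter family, had 0 in every library. Of the 9 markers 1 was called between 30 and 90 days, Atp6v1g3, which was higher at 90 days, beside 1.81% of all genes called higher. It is a low gene, at 0.212 to 0.710 CPM at 30 days and 0.977 to 2.37 CPM at 90 days. In the other pairs of times 0 were called, beside 1.56% and 0.256% of all genes. At an unadjusted p under 0.05 there were 6, 3 and 4 of 9 for 60 against 30, 90 against 60 and 90 against 30 days. The shares of all genes were 12.4%, 10.8% and 16.8%.

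Car3, the carbonic anhydrase of muscle and fat, was uneven between libraries of the same time. Its counts were 0, 115 and 18 at 30 days, 20, 3 and 34 at 60 days and 35, 23 and 17 at 90 days. In 30-day sample 2, where Car3 was highest, the fat cell gene Cfd had 64 counts and Adipoq 23, each its highest count, and in 30-day sample 1 all 3 genes had 0. Both are among 8 listed fat cell markers. The summed level of the 8 was 110 to 129 CPM at 30 days, 109 to 137 CPM at 60 days and 112 to 116 CPM at 90 days. At 30 days Cfd and Adipoq reached at most 3.80 and 1.37 CPM, and Plin1, Lep, Cidec and Retn at most 0.772 CPM. Fabp4 was even, at 8.14 to 9.86 CPM, with at least 115 counts in every library. Most of the sum therefore came from the remaining gene, Pnpla2, and the sum says little about Cfd and Adipoq. Of the skeletal muscle genes Myh4 had 0 counts in every library, while Ckm had 18 to 54 counts and Acta1 1 to 14. The red cell anion exchanger gene Slc4a1 had at most 5 counts in a library, although the haemoglobin gene Hbb-bs reached 119.5 CPM. Whether the share of fat in the sections differed was not tested.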
